A study of Mus musculus with 2 samples.

Results

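The set named here Chil3 Retnla Gpnmb macrophages, from the injured mouse retina, was 60 cell barcodes of a single-cell RNA library. The series kept 3670 barcodes. All 60 came from the library of mice treated with MSC-sEV, and the PBS library held 0. A barcode, the tag that marks 1 droplet, was a member when it passed 3 conditions on its UMIs, the tags that count captured RNA molecules. It had at least 5 UMIs summed over C1qa, C1qb and C1qc, at least 2 UMIs in each of at least 3 of Chil3, Gpnmb, Ms4a7, Retnla, Ccl8 and Mrc1, and a UMI in at most 1 of the cell cycle genes Mki67, Top2a, Ube2c, Birc5 and Cdk1. Barcodes below 500 UMIs or 300 genes, or above 15% mitochondrial UMIs, were left out first. Members were thus chosen by their measured levels of these 14 genes, so the levels of these genes describe the choice and are not a finding, and every comparison with barcodes outside the rule is a description without a test.

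The series had 1 library for each group. Each was made from the pooled retinas of 6 C57BL/6 mice, 6 to 8 weeks old, 2 weeks after injury of the optic nerve, which damages the axons of retinal ganglion cells. The MSC-sEV group received what the labels call MSC-sEV, and the PBS group received the buffer PBS. Cells of both were freed with 15 U/mL papain and enriched on beads for CD45, the surface protein of leukocytes, so the shares of cell types below are shares after this enrichment.

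Macrophages of a damaged tissue can be resident or can arise from monocytes that enter from blood. In the retina the resident ones are mainly microglia, known by P2ry12, Tmem119 and Sall1, while entering monocytes carry Ly6c2 and the chemokine receptor Ccr2. Interleukin 4 and interleukin 13 act through the transcription factor STAT6 and drive the state called alternative activation, in which mouse macrophages make the arginase Arg1, the chitinase-like protein Chil3, the resistin-like protein Retnla and the mannose receptor Mrc1. Gpnmb is a glycoprotein of lysosomes that is known from lipid-laden macrophages, Ms4a7 a membrane protein of macrophages outside the microglia, and Ccl8 a chemokine. C1qa, C1qb and C1qc encode the chains of C1q, the starter of the classical complement pathway, which tissue macrophages make.

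Start regions of the genes at the centre of the rule are shown to place the transcripts on the genome and to show how close Chil3 is to its neighbour copy Chil4. Each runs 5′ to 3′ on the strand of the gene, from 250 bases before to 50 bases after the start, and was taken from RefSeq for GRCm38.p6, the build also called mm10. The regions are chr3:106167515-106167814 (minus strand) for Chil3, chr3:106219430-106219729 (minus strand) for Chil4, chr16:48842359-48842658 (plus strand) for Retnla and chr6:49036268-49036567 (plus strand) for Gpnmb. Capitals mark TTCNNNGAA in Chil3 and Chil4, TTCNNNNGAA in Retnla and TGANTCA in Gpnmb, the core letters of STAT, STAT6 and AP-1 sites, each searched on both strands.
Chil3 promoter: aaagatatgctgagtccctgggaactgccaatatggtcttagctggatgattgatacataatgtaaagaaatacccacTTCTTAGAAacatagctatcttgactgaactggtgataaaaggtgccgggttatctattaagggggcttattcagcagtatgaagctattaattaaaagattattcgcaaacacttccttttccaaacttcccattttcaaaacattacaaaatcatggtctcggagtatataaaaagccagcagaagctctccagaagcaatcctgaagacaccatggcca
Chil4 promoter: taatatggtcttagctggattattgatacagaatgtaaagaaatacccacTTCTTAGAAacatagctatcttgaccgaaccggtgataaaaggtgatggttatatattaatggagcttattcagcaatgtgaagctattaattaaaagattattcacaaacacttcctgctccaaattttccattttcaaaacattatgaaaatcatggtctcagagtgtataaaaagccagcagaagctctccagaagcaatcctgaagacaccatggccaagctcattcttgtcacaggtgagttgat
Retnla promoter: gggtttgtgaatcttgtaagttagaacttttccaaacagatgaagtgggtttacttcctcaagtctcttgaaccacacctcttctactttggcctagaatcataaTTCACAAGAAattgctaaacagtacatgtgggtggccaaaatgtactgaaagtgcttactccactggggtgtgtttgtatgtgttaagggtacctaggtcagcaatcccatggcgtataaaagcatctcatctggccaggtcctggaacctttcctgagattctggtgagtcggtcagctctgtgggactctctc
Gpnmb promoter: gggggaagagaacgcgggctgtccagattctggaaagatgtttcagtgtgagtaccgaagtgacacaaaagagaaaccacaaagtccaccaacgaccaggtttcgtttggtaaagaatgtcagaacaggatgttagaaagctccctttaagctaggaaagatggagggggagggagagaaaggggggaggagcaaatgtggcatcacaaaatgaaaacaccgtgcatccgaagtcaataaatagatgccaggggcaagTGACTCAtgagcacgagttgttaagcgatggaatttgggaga

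The Chil3 and Chil4 regions were identical at 251 of 273 aligned positions (91.9%), including TTCTTAGAA. In Retnla the match was TTCACAAGAA and in Gpnmb it was TGACTCA, which lay just past the start. Ms4a7 held TTCCGGGGAA in 1 of its start regions and TGATTCA in another, and the regions of Ccl8 and Mrc1 held none of the 3 patterns. Among 32851 mouse start regions of the same length, TTCNNNNGAA was in 6.95%, TTCNNNGAA in 8.30% and TGANTCA in 7.81%. A match is a run of letters and no measure of binding. Chil3 had 6279 UMIs in the members and Chil4 5 UMIs, and how reads that match both copies were counted is not given in the sources used here, so the split between these copies is uncertain.

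The 6 marker genes of the rule lie on separate chromosomes. Chil3 spans chromosome 3, 106147554 to 106167564, Retnla chromosome 16, 48842551 to 48844461, and Gpnmb chromosome 6, 49036546 to 49070929. Ms4a7 lies on chromosome 19, 11321039 to 11336146, Ccl8 on chromosome 11, 82115185 to 82116799, and Mrc1 on chromosome 2, 14229392 to 14332057 (mm10).

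Members were found among C1q-positive barcodes of the MSC-sEV library alone. They were 60 of 560 such barcodes (10.7%, exact Clopper-Pearson 95% interval 8.28 to 13.6) in the MSC-sEV library, against 0 of 196 in the PBS library. A count of 0 allows a share of up to 1.53% (3 counts of the total), and the exact interval reaches 1.86%. C1q-positive barcodes themselves were 560 of 2323 kept barcodes (24.1%, 22.4 to 25.9) in the MSC-sEV library and 196 of 1347 (14.6%, 12.7 to 16.5) in the PBS library. These intervals cover counting error only, since each group was 1 pool of mice and no spread between mice can be had. The MSC-sEV library held 16987131 UMIs and the PBS library 8439740, and C1q-positive barcodes had a median of 11703.5 UMIs in the MSC-sEV library and 7460 in the PBS library. No barcode sequence was shared between the libraries.

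The PBS library held few barcodes near the rule. Among C1q-positive barcodes, 366, 71, 50, 34, 21, 11 and 7 of the MSC-sEV library had 0, 1, 2, 3, 4, 5 and 6 of the markers at 2 or more UMIs, while 186, 6 and 4 of the PBS library had 0, 1 and 2. The 4 PBS barcodes with 2 markers all carried Ms4a7 and Mrc1. They also had Pf4, a chemokine of border-associated macrophages, in 4 of 4 barcodes (71 UMIs), P2ry12 in 4 of 4 (37 UMIs) and 0 UMIs of Arg1. Over all barcodes, filtered or not, Chil3 had 12864 UMIs in the MSC-sEV library and 0 in the PBS library, Retnla 9894 and 0, and Ccl8 5568 and 0. Gpnmb had 2775 UMIs in the MSC-sEV library and 21 in the PBS library, Ms4a7 1346 and 68, and Mrc1 1929 and 36. The rod markers of the PBS C1q-positive barcodes took 4.37% of UMIs, against 0.143% in the members, so part of the PBS set carried photoreceptor RNA as well, and its part in the result was not tested.

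**Figure D1:**
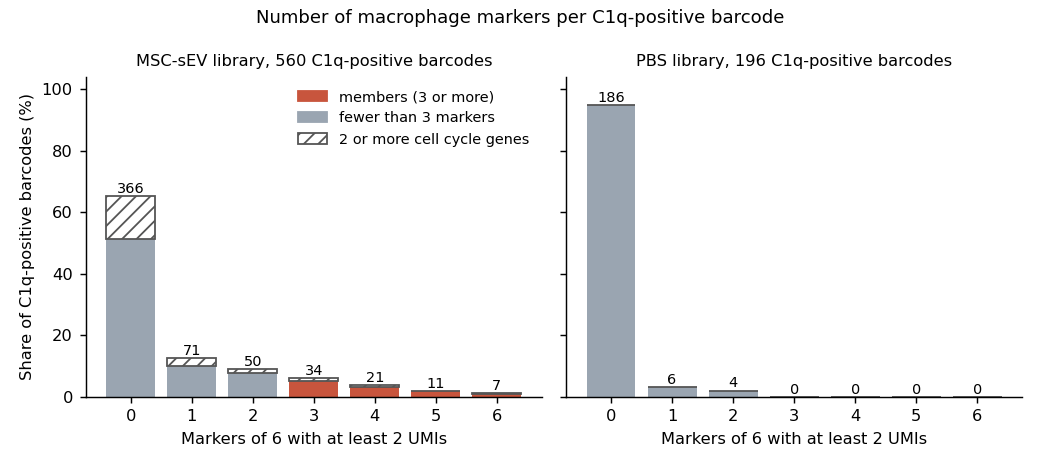
Share of C1q-positive barcodes (y axis, %) by the number of the 6 markers with at least 2 UMIs (x axis), with the MSC-sEV library on the left and the PBS library on the right. Numbers over the bars are barcodes, hatched parts have 2 or more cell cycle genes, and red bars hold the 60 members, all in the MSC-sEV library. PBS barcodes stop at 2 markers.

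Members were deep barcodes. They had 1813 to 63715 UMIs with a median of 19128.5, against a median of 9920 in the 500 other C1q-positive barcodes of the library. Their median mitochondrial share was 2.64%, against 2.98% in the other C1q-positive barcodes. When each barcode was thinned to 5000 UMIs before the rule was applied, 34 barcodes passed it (10.1% of C1q-positive barcodes of that depth), of which 29 were among the 60 members, and at 1000 UMIs 11 passed (2.70%), of which 10 were. The number of members thus depends on the depth at which the markers are read. Scrublet, a doublet caller, marked 4 barcodes of the library (0.172%) and 0 members, and 1 member lay in the 2% with the highest scores.

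Barcodes just inside and just outside the rule are given without a test. Members with exactly 3 markers were 28 and had Chil3 at 3001 CPM (UMIs of a gene at a common total of UMIs), Retnla at 2808 CPM and Arg1 at 4235 CPM. The 43 barcodes outside with 2 markers had Chil3 at 284 CPM, Retnla at 1471 CPM and Arg1 at 2835 CPM, at a similar median depth of 18353 UMIs. A further 13 barcodes had 3 or more markers but 2 or more cell cycle genes, and these had Chil3 at 7887 CPM, Gpnmb at 1123 CPM and Arg1 at 5702 CPM.

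The label of the group was set beside general and origin markers. Adgre1 (the macrophage antigen F4/80) had a UMI in 52 of 60 members, Cd68, a lysosomal protein of phagocytes, in 52 and Csf1r, the receptor for the macrophage growth factor CSF1, in 57. Markers of microglia were lower in the members. Of the 14 genes of the microglia list, 0 were at least 2-fold higher and 13 at least 2-fold lower than in the other C1q-positive barcodes, where 4.04% of 11998 genes were at least 2-fold higher and 21.4% at least 2-fold lower. The list summed to 0.169% of UMIs in the members and 0.590% in the other C1q-positive barcodes. P2ry12, a purine receptor, was at 40.3 CPM in the members and 190 CPM in the others (4.70-fold lower, 3.59 to 6.28), and Sall1, the transcription factor that sets microglial identity, at 18.3 and 136 CPM (7.44-fold lower, 5.01 to 11.5). Still, 12 of the 60 members had at least 2 UMIs in each of at least 2 of P2ry12, Tmem119, Siglech, Sall1 and Gpr34, and 28 had 0 UMIs of all of them.

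Monocyte genes were present in part of the members. Ccr2, which lies on chromosome 9, 124101950 to 124113557, had a UMI in 40 of 60 members, with a lowest, median and highest barcode of 0, 329.7 and 4545 CPM. Its summed level was 521 CPM in the members and 208 CPM in the other C1q-positive barcodes. Ly6c2 had a UMI in 18 of 60 members and was at 111 CPM in the members and 87.9 CPM in the others. Lyz2, the lysozyme of myeloid cells, had a UMI in 60 of 60 members, and was at 5451 CPM in the members and 1712 CPM in the others (3.18-fold, 3.09 to 3.28). Of the 8 classical monocyte markers, 3 were at least 2-fold higher and 0 at least 2-fold lower. Chil3 of the rule is one of them, and without it 2 of 7 were higher. Over all genes 4.04% were. Markers of border-associated macrophages, the resident macrophages of vessels and meninges, were at least 2-fold higher for 8 of 8 measured genes (median log2 ratio 2.22, all genes -0.27). These included Mrc1 of the rule, and without it 7 of 7 were (1.95). They were carried unevenly, since Stab1, a scavenger receptor, had a UMI in 32 of 60 members (2.26-fold, 1.79 to 2.84), Pf4 in 21 and Clec4n, a lectin receptor, in 19, while Cbr2, a carbonyl reductase, had one in 9, Folr2, a folate receptor, in 10 and F13a1, a clotting factor subunit, in 10. The defining markers Lyve1 and Cd163 had 2 and 9 UMIs in the members. Lyve1 had too few counts to be among the measured genes. Cd163 was among the 7 higher genes and its ratio set their median of 1.95, although all its UMIs in the members were in 1 barcode. A monocyte origin was therefore not shown by these levels, and the origin of the members was not tested.

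The members were set beside the barcodes most like them. In the MSC-sEV library, 236 other C1q-positive barcodes had at least 2 of the 5 microglia markers (median 15993.5 UMIs), and 20 barcodes had Ly6c2 and Ccr2 but under 5 C1q UMIs (median 12691.5 UMIs). Against the microglia marker barcodes, 604 of 10632 genes (5.68%) were at least 2-fold higher in the members and 1501 (14.1%) at least 2-fold lower. Against the Ly6c2 Ccr2 barcodes, 1053 of 7373 genes (14.3%) were higher by that measure and 659 (8.94%) lower. The genes that chose each set are part of these counts. Arg1 was at 4915 CPM in the members, 2206 CPM in the microglia marker barcodes and 4064 CPM in the Ly6c2 Ccr2 barcodes. Apoe, a lipid carrier, was at 10846, 7253 and 1256 CPM in these sets, and Igf1, a growth factor, at 506, 299 and 7.90 CPM. Ccl24, a chemokine for eosinophils, was at 2075, 1056 and 3854 CPM, and Ccr2 at 521, 86.7 and 1824 CPM. Members thus lay between the sets for Ccr2 and Ccl24 and above both for Apoe and Igf1, while C1qa was at 3613, 6434 and 59.2 CPM.

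**Figure D2:**
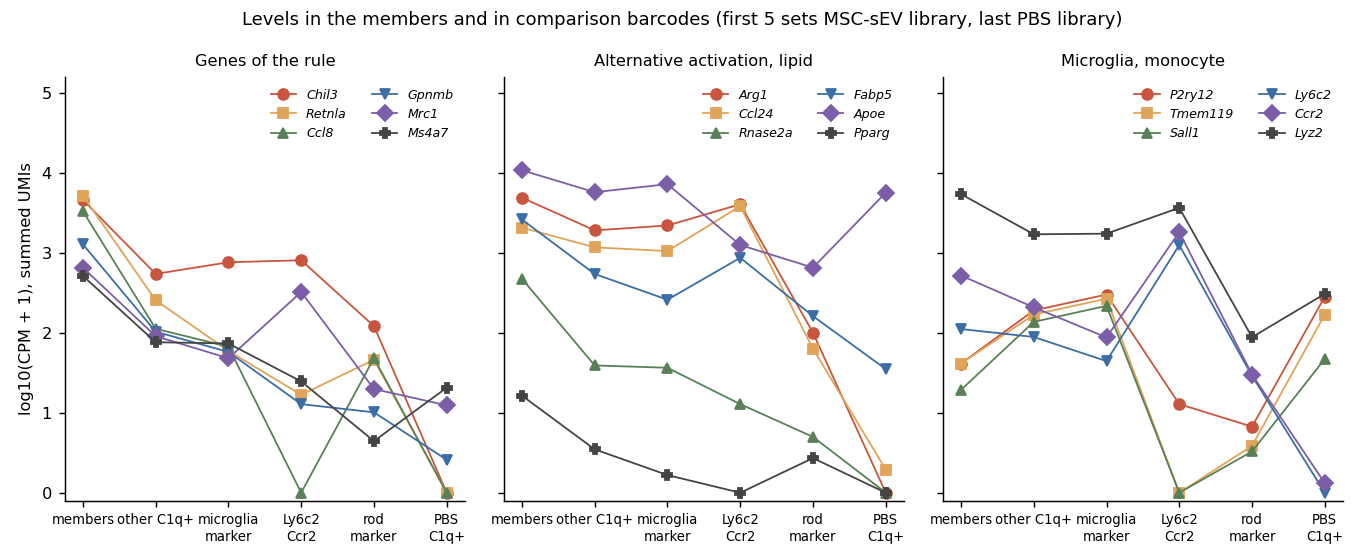
Summed levels as log10(CPM + 1) (y axis) of 6 rule genes, 6 genes of alternative activation and lipid handling and 6 origin markers in 6 barcode sets (x axis). The first 5 sets are from the MSC-sEV library and the last is the PBS C1q-positive set. Lines join the points of 1 gene and do not stand for a course. Retnla was at 5199 CPM in the members and at 0 in the PBS set, and P2ry12 at 40.3 CPM in the members, below its 301 CPM in the microglia marker barcodes.

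The 6 rule genes were carried unevenly by the members. Mrc1 had at least 2 UMIs in 56 of 60 members, Ms4a7 in 47, Chil3 in 44, Ccl8 in 36, Retnla in 25 and Gpnmb in 24. Of 42 combinations that satisfy the rule, 21 occurred, and Chil3, Ms4a7 and Mrc1 with Ccl8 (7 barcodes) or without it (7) were the most frequent. All 6 genes were present in 5 barcodes. Mrc1 ranged from 0 to 2458 CPM with a median of 444.1, and Ms4a7 from 0 to 2918 CPM with a median of 335.7, so both were spread over most barcodes. Chil3 ranged from 0 to 37623 CPM with a median of 623.8, and Ccl8 from 0 to 29174 CPM with a median of 237.1. Retnla had a median of 0 and a highest value of 66019 CPM, and 31.2% of its 7089 UMIs came from 1 barcode. Gpnmb also had a median of 0, with a highest value of 8359 CPM. Retnla had any UMI in 29 members and Gpnmb in 28, so their summed levels came from about the same number of barcodes.

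The members held a large part of these transcripts in their library. Of all Ccl8 UMIs in the library 81.4% were in the 60 members, of Retnla 71.6%, of Gpnmb 63.1%, of Ms4a7 52.3%, of Chil3 48.8% and of Mrc1 46.2%. In summed CPM, Ccl8 was at 3326 in the members and 112 in the other C1q-positive barcodes, Retnla at 5199 and 255, and Chil3 at 4605 and 546. Of the Chil3 UMIs of the other C1q-positive barcodes 80.3% were in 1 barcode, and among barcodes of a like depth the ratio of Chil3 was 50.5, against 8.44 over all. Gpnmb was at 1283 CPM in the members and 103 CPM in the others, Mrc1 at 653 and 90.0 CPM, and Ms4a7 at 516 and 75.4 CPM. Thinned to 1000 UMIs, which left out 22 of the other C1q-positive and 140 of 685 rod marker barcodes, Chil3 had a UMI in 55.0% of members and 3.97% of the others, against 3.67% of rod marker barcodes, which should lack it. Rod marker barcodes had a median of 2232 UMIs before thinning, and unthinned Chil3 had a UMI in 83.3% of members, 24.4% of the others and 8.03% of rod marker barcodes. The thinned share of Chil3 in the other C1q-positive barcodes was thus close to that in rod marker barcodes. For the other rule genes it lay above it, as for Ms4a7 (31.7% of members, 4.39% of the others and 0.183% of rod marker barcodes) and Retnla (31.7%, 6.49% and 2.75%).

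**Figure D3:**
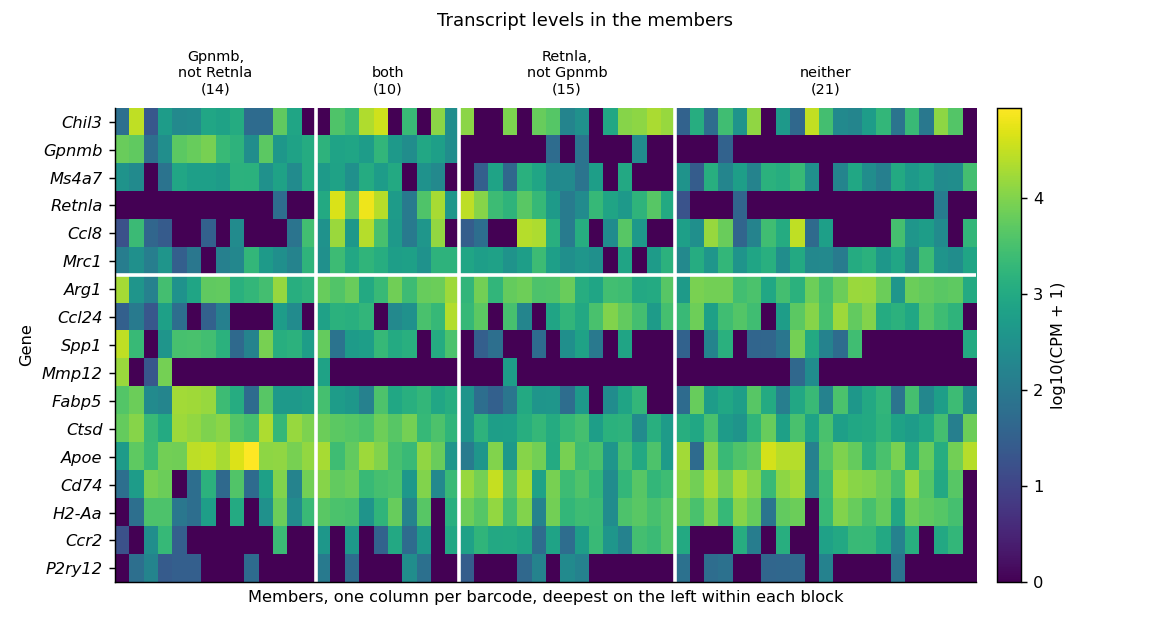
Level of 17 genes (rows) in the 60 members (columns) as log10(CPM + 1) by colour. Blocks are members with Gpnmb and not Retnla (14), both (10), Retnla and not Gpnmb (15) and neither (21), each at 2 or more UMIs, and the upper 6 rows are the rule genes. Arg1 was above 0 in all 60 columns, while Mmp12 was above 0 in 7.

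Arg1, the arginase of alternatively activated macrophages, was carried by every member. It is on chromosome 10, 24915221 to 24927484, and no rule condition used it. All 60 members had at least 2 UMIs of it, with a lowest, median and highest barcode of 147.8, 3598 and 19132 CPM, against a median of 539.0 CPM in the other C1q-positive barcodes. Its summed level was 4915 CPM in the members and 1916 CPM in the others (2.57-fold, 2.49 to 2.64), and it had 0 UMIs in the 196 PBS C1q-positive barcodes. Thinned, it had a UMI in 81.7% of members, 50.0% of the others and 4.95% of rod marker barcodes. Across the alternative activation list, 13 of 24 measured genes were at least 2-fold higher and 0 at least 2-fold lower (median log2 ratio 1.14, all genes -0.27). These included Chil3, Retnla and Mrc1 of the rule, and without the rule genes 10 of 21 were higher (0.94). Over all genes 4.04% were. Ccl24 was at 2075 CPM in the members and 1174 CPM in the others (1.77-fold, 1.69 to 1.84). With at least 4 markers required in place of 3, its log2 ratio was -0.17. Rnase2a, an eosinophil-type ribonuclease, was at 474 and 38.2 CPM (12.4-fold, 10.8 to 14.3) and had a UMI in 37 of 60 members. Slc7a2, a transporter that brings arginine into the cell, was at 415 and 42.6 CPM (9.74-fold, 8.48 to 11.2). Pparg, a lipid-sensing nuclear receptor, rested on 21 UMIs in 10 members (6.18-fold, 3.16 to 12.2). The receptor chain Il4ra was at 86.5 CPM in the members and 95.3 CPM in the others, a ratio whose interval of 0.741 to 1.10 holds 1.

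Many genes of lipid uptake, and fewer of lysosomes, were higher in the members. Of 21 measured lipid genes, 11 were at least 2-fold higher and 1 at least 2-fold lower (median log2 ratio 1.12). Over all genes these shares were 4.04% and 21.4%. Apoe was at 10846 CPM in the members and 5762 CPM in the others (1.88-fold, 1.85 to 1.92), and had a UMI in 60 of 60 members. Fabp5, a fatty acid-binding protein, was at 2622 and 545 CPM (4.81-fold, 4.60 to 5.03), and Lipa, the lysosomal acid lipase, at 336 and 60.2 CPM (5.58-fold, 4.89 to 6.36). Lgals3 (galectin-3), a lectin of phagocytes, was at 2679 and 542 CPM (4.95-fold, 4.73 to 5.17). Of 23 lysosome and cathepsin genes, 6 were at least 2-fold higher and 1 at least 2-fold lower (median 0.42), and without Gpnmb, a rule gene on this list, 5 of 22 were higher. Psap, the precursor of the saposins that help break down sphingolipids, was at 7018 CPM in the members and 3014 CPM in the others, and the protease Ctsb at 4873 and 2123 CPM. Atp6v0d2, a subunit of the acidifying proton pump, was at 325 and 22.8 CPM (14.2-fold, 11.9 to 17.1), from 26 of 60 members.

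Some of the highest ratios came from single barcodes. Mmp12, the macrophage elastase on chromosome 9, 7344381 to 7369499, was at 1022 CPM in the members and 25.2 CPM in the others (40.6-fold, 34.9 to 47.5), but it had a UMI in 7 members. The deepest member, with 63715 UMIs, held 72.5% of its UMIs, 76.3% of those of the lipoprotein lipase Lpl and 55.1% of those of Spp1 (osteopontin), a secreted adhesion protein. Without that member the ratio was 11.7 for Mmp12, 2.22 for Lpl and 3.29 for Spp1, against 40.6, 8.94 and 6.99 with it. Another member, with 39283 UMIs, had Mmp12 at 8222 CPM, so the Mmp12 ratio of 11.7 again rested largely on 1 barcode. Spp1, on chromosome 5, 104435118 to 104441050, still had a UMI in 41 of 60 members, with a median of 128.1 CPM. Pf4 had 59.9% of its UMIs in 1 barcode, and its ratio of 7.93 was 2.14 among barcodes of a like depth. Arg1 had 18.2% of its UMIs in the deepest member, and its ratio without it was 2.20.

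Further genes with the highest ratios had mixed roles. Gdf15, a stress-induced hormone, was at 29.3 CPM in the members and 1.44 CPM in the others (20.3-fold, 10.2 to 43.9), and the collagen-degrading cathepsin Ctsk at 43.3 and 2.89 CPM (15.0-fold, 9.05 to 25.7). With each barcode weighted equally, these ratios were 7.67 and 3.76. Acod1, the enzyme that makes itaconate, was at 83.6 and 6.82 CPM (12.3-fold, 8.76 to 17.4), from 10 members. F7, clotting factor VII, was carried more widely, with a UMI in 35 of 60 members, and was at 215 CPM in the members and 22.6 CPM in the others (9.53-fold, 7.86 to 11.6). Cd93, a gene of the phagocytosis receptor list, was at 88.0 and 8.66 CPM (10.2-fold, 7.47 to 13.9). The membrane proteins Emp1 and Vat1 were at 110 and 186 CPM in the members, against 13.4 and 26.6 CPM in the others.

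Chemokines and their receptors moved both ways. Of 19 chemokine genes, Ccl8 of the rule included, 6 were at least 2-fold higher and 6 at least 2-fold lower (median log2 ratio -0.41). Without Ccl8, 5 of 18 were higher and 6 lower. Over all genes these shares were 4.04% and 21.4%. Apart from Ccl8, the chemokine Ccl9 was at 835 CPM in the members and 116 CPM in the others (7.20-fold, 6.59 to 7.88), and Ccl6 at 1602 and 323 CPM (4.95-fold, 4.68 to 5.25). They had a UMI in 44 and 56 of 60 members. The Ly6c2 Ccr2 barcodes were close to the members, with Ccl9 at 723 CPM and Ccl6 at 1260 CPM. The ratio of members over these barcodes was 1.16 for Ccl9 (0.988 to 1.36) and 1.27 for Ccl6 (1.13 to 1.44). Cxcl10, an interferon-induced chemokine, had 5 UMIs in the members and 398 in the others (14.2-fold lower, 6.05 to 44.1). Among 11 chemokine receptors, 3 were at least 2-fold higher and 4 at least 2-fold lower. Ccr1 was at 222 CPM in the members and 66.6 CPM in the others, Cxcr4 at 175 and 57.6 CPM, and the fractalkine receptor Cx3cr1, which is high in microglia, at 389 and 979 CPM. In the Ly6c2 Ccr2 barcodes Ccr1 was at 312 CPM, above the members, while Cxcr4 was at 67.1 CPM and Cx3cr1 at 79.0 CPM.

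Antigen presentation genes split by class. Of 10 MHC class II genes, 3 were at least 2-fold higher and 0 at least 2-fold lower (median log2 ratio 0.67). The shares over all genes were 4.04% and 21.4%. Markers of type 2 conventional dendritic cells, which also carry class II, were at least 2-fold higher for 3 of 8 genes and lower for 1 (median 0.32), and their part in the result was not tested. Of 15 MHC class I genes, 0 passed 2-fold in either direction (median -0.03). H2-Aa, a chain of the class II molecule, was at 3706 CPM in the members and 1606 CPM in the others (2.31-fold, 2.23 to 2.38), and it ranged from 0 to 13982 CPM over the members with a median of 3145. Cd74, the invariant chain, was at 7257 and 4465 CPM (1.63-fold, 1.59 to 1.66) and had a UMI in 58 of 60 members. Of 24 interferon response genes, 0 were at least 2-fold higher and 4 at least 2-fold lower (median -0.47), a share no larger than that of all genes, and Ifi27l2a was at 614 CPM in the members and 1301 CPM in the others.

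More iron and matrix genes than the 4.04% of all genes were at least 2-fold higher, while their counts of lower genes were near or below the share of 21.4% of all genes. In the iron and heme list, 7 of 15 genes were at least 2-fold higher and 2 at least 2-fold lower (median log2 ratio 0.96). The ferritin chains Fth1 and Ftl1, which store iron, were at 9936 and 9072 CPM in the members, against 3974 and 3098 CPM in the others (2.50-fold, 2.45 to 2.55, and 2.93-fold, 2.87 to 2.99). Blvrb, a biliverdin reductase of heme breakdown, was 3.06-fold higher (2.61 to 3.58) and the transferrin receptor Tfrc 2.93-fold (2.39 to 3.57). In the matrix and protease list, 11 of 23 genes were at least 2-fold higher and 5 at least 2-fold lower (median 0.83). Fn1 (fibronectin) had a UMI in 59 of 60 members and was at 1652 CPM in the members and 492 CPM in the others (3.36-fold, 3.19 to 3.54), and Tgfbi, a matrix adhesion protein, at 816 and 234 CPM. In the Ly6c2 Ccr2 barcodes Tgfbi was at 1402 CPM, above the members, and Fn1 at 829 CPM. Sparc, a matrix protein made by microglia, was at 105 CPM in the members and 812 CPM in the others (7.74-fold lower, 6.56 to 9.21), and Postn (periostin) at 6.60 and 61.6 CPM.

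The inflammatory gene list had a median log2 ratio of -0.46, the complement list without the 3 C1q genes of the rule 0.17 and growth factors 0.30, beside -0.27 for all genes. Of the 10 complement genes outside the rule, 2 were at least 2-fold higher and 2 at least 2-fold lower. The shares over all genes were 4.04% higher and 21.4% lower. C3, the central component, was at 764 CPM in the members and 385 CPM in the others (1.98-fold, 1.85 to 2.13), properdin (Cfp) at 213 and 54.8 CPM, and C4b at 47.7 and 198 CPM (4.15-fold lower, 3.24 to 5.41). C1qa itself was at 3613 CPM in the members and 4433 CPM in the others. In the Ly6c2 Ccr2 barcodes Cfp was at 312 CPM, above the members, while C3 was at 652 CPM and C4b at 19.7 CPM. Growth factors had 5 of 17 genes at least 2-fold higher and 2 at least 2-fold lower, and among the higher was Igf1 at 506 CPM in the members and 220 CPM in the others (2.30-fold, 2.10 to 2.52). Of 14 inflammatory genes, 1 was at least 2-fold higher and 3 at least 2-fold lower. For the complement and inflammatory lists the share of lower genes was near that of all genes. Il1b, the cytokine interleukin 1 beta, was at 477 CPM in the members and 476 CPM in the others, and Il1a at 25.7 and 89.6 CPM.

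Transcription factors of the macrophage lineage gave 5 of 33 genes at least 2-fold higher and 5 at least 2-fold lower. The shares over all genes were 4.04% and 21.4%. Tfec and Mitf, related factors that act on lysosomal genes in macrophages, were at 76.3 and 59.4 CPM in the members, against 16.4 and 21.5 CPM in the others (4.65-fold, 3.55 to 6.08, and 2.76-fold, 2.09 to 3.63). In the Ly6c2 Ccr2 barcodes Tfec was at 142 CPM, above the members, and Mitf at 27.6 CPM. Klf2 was at 216 CPM in the members and 461 CPM in the others. Among receptors, Csf1r was at 890 and 1306 CPM and the lipid receptor Trem2 at 704 and 754 CPM. Glycolysis, oxidative phosphorylation and Fc receptor lists had median log2 ratios of -0.02, -0.07 and -0.02.

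The 15 genes with the lowest ratios are known mostly from dividing cells, from microglia, from antibody-making cells or from retinal cells. Hist1h1b, Pclaf, Hist1h2ap, Nusap1, Cenpe, Ccna2, Cenpf, Hist1h2ae and Hist1h2ab are histones and genes of DNA synthesis and mitosis. They had 0 to 5 UMIs each in the members, and the rule removed barcodes with 2 or more cell cycle genes, which the compared barcodes could hold. With the compared barcodes held to the same condition, the log2 ratios of 8 of these genes lay between -2.61 and -0.75, and that of Nusap1 was 0.50. Nusap1, Hist1h2ap and Ccna2 had 0 UMIs in the members, so their values rested on the floor of 3 counts. The antibody light chain Igkc was at 8.07 CPM in the members and 766 CPM in the others, and Lcn2, an iron-scavenging lipocalin, at 11.0 and 417 CPM. Pde6h, a phosphodiesterase subunit of cones, was at 8.80 and 194 CPM, Clu, a chaperone high in Müller glia, at 19.8 and 355 CPM, and Ttyh1, a channel protein of Müller glia, at 1.47 and 42.4 CPM. Siglech, a lectin of microglia, was at 27.9 and 290 CPM (10.4-fold lower, 7.56 to 14.8). Rod markers summed to 0.143% of UMIs in the members and 0.699% in the others, so the compared barcodes held more retinal RNA, and its part in these ratios was not tested. Igkc had a UMI in 11 of 60 members and 64 of 500 others, Lcn2 in 9 and 62, and Pde6h in 11 and 75. For these genes the share of barcodes with a UMI was thus not lower in the members, which were deeper. Their low ratios came from high counts in a minority of the others. For Clu, Ttyh1 and Siglech this share was lower in the members. Against microglia marker barcodes alone, the ratio was 0.341 for Igkc, 0.865 for Pde6h and 1.16 for Lcn2. It was 0.322 for Clu, 0.144 for Ttyh1 and 0.0635 for Siglech.

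**Figure D4:**
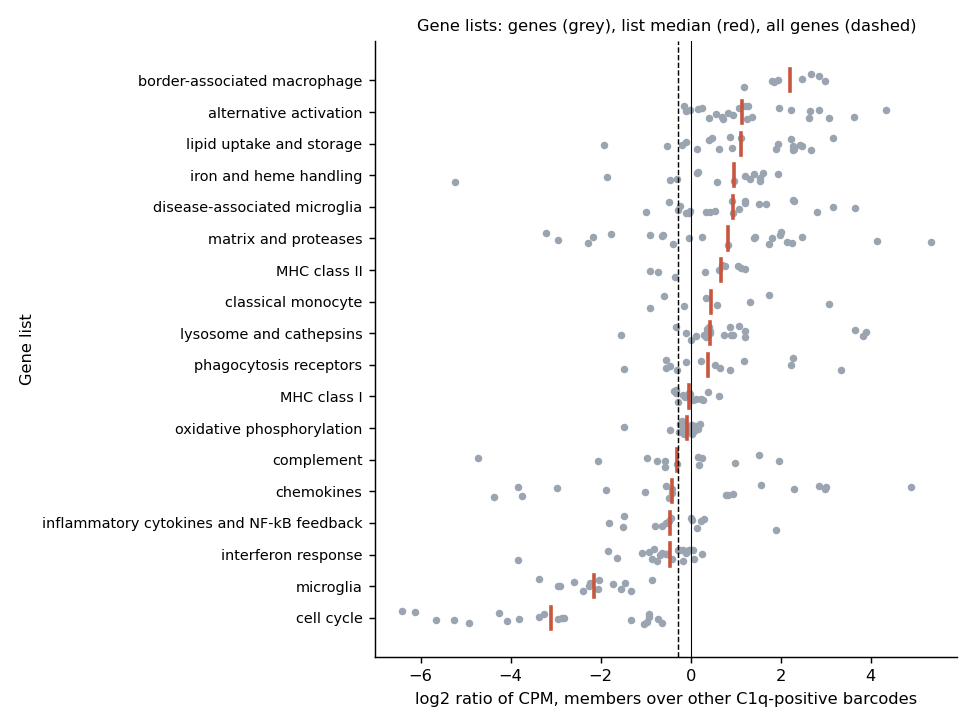
Log2 ratio of CPM in the members over the other C1q-positive barcodes (x axis) for genes with at least 20 counts in 18 gene lists (rows), with each gene as a grey point and the list median as a red bar. The dashed line is the median of all genes, -0.27. The border-associated macrophage list had the highest median shown (2.22) and the cell cycle list, from which the rule took genes, the lowest (-3.11).

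Members with Gpnmb and members with Retnla differed in their other transcripts. With 2 or more UMIs as presence, 14 members had Gpnmb and not Retnla (median 25780 UMIs), 15 had Retnla and not Gpnmb (median 17540 UMIs), 10 had both and 21 neither. These sets are from 1 library and were cut by their own counts, so the comparison is a description. Between them, 515 of 4488 genes (11.5%) were at least 2-fold higher in the Gpnmb barcodes and 322 (7.17%) at least 2-fold lower.

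The Gpnmb barcodes were higher for lipid and lysosome genes. Over all genes, 11.5% were at least 2-fold higher in them and 7.17% at least 2-fold lower. Of 15 measured lipid genes, 12 were at least 2-fold higher and 0 lower (median log2 ratio 1.96, all genes 0.02), and of 23 lysosome genes 10 were higher and 1 lower (0.98). Of 20 genes of the disease-associated microglia list, the genes that microglia raise near dying neurons and lipid debris, 14 were higher and 0 lower (1.72). Gpnmb, which cut the sets, is on this list and on the lysosome list, and without it 13 of 19 (1.58) and 9 of 22 (0.93) were higher. Ctsd, a lysosomal protease, was at 8364 CPM in the Gpnmb barcodes and 1183 CPM in the Retnla barcodes (7.07-fold, 6.27 to 8.00), with medians per barcode of 9540 and 1257 CPM. Fabp5 was at 5933 and 308 CPM (19.3-fold, 15.3 to 24.6), the tetraspanin Cd63 at 1879 and 243 CPM, and Apoe at 15901 and 4078 CPM. Spp1 was at 6194 CPM in the Gpnmb barcodes and 97.2 CPM in the Retnla barcodes, with 74.1% of its Gpnmb-side UMIs in 1 barcode, but it had a UMI in 13 of 14 Gpnmb barcodes and 7 of 15 Retnla barcodes. Atp6v0d2, the fatty acid receptor Cd36 and the endolysosomal exonuclease Pld3 were 18.7-fold (9.68 to 41.2), 63.0-fold (21.4 to 307) and 11.0-fold (6.20 to 21.7) higher. Cd36 had 3 UMIs and Atp6v0d2 9 UMIs in the Retnla barcodes. Of their Gpnmb-side UMIs, 49.8% and 41.7% were in 1 barcode, and each had a UMI in 8 of 14 Gpnmb barcodes. Rod markers were at least 2-fold higher there too, for 7 of 9 genes (1.64), and their part in the result was not tested. Sag (arrestin) was not among these, at 712 and 417 CPM (1.71-fold, 1.36 to 2.16). Its medians per barcode were 147.7 and 156.1 CPM, and 47.8% of its Gpnmb-side UMIs were in 1 barcode.

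Set against the Gpnmb barcodes, the Retnla barcodes were higher for MHC class II, interferon and monocyte genes. Over all genes, 7.17% were at least 2-fold lower in the Gpnmb barcodes and 11.5% at least 2-fold higher. Of 8 measured MHC class II genes, 7 were at least 2-fold lower in the Gpnmb barcodes (median log2 ratio -2.02), as were 10 of 16 interferon genes (-1.53), 4 of 5 monocyte markers (-2.01) and, leaving out Retnla and the other rule genes, 10 of 18 alternative activation genes (-1.47). Markers of type 2 conventional dendritic cells were also higher with Retnla for 3 of 5 genes (-1.87) and granulocyte markers for 2 of 3 (-3.06), with the neutrophil gene Retnlg at 61.6 and 514 CPM, and their part in the result was not tested. H2-Aa was at 1222 CPM in the Gpnmb barcodes and 5755 CPM in the Retnla barcodes, with medians per barcode of 279.1 and 3591 CPM. Ccl24 was at 126 and 2191 CPM (17.4-fold higher with Retnla, 13.1 to 23.7), and had medians of 32.1 and 2049 CPM. Plac8, a protein of monocytes and other leukocytes, was at 19.7 and 433 CPM, the interferon-induced GTPase Gbp2 at 12.3 and 251 CPM, and Mgl2, a lectin of alternatively activated macrophages and dendritic cells, at 91.1 and 591 CPM. Ccr2 had a UMI in 5 of 14 Gpnmb barcodes and 15 of 15 Retnla barcodes, and was at 333 and 923 CPM. Guanine deaminase (Gda), S100a4, Rnase2a and Ccl9 were 8.50-fold, 6.43-fold, 9.64-fold and 5.04-fold higher with Retnla.

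Arg1 and P2ry12 were closer between the sets. Arg1 had a UMI in 14 of 14 Gpnmb barcodes and 15 of 15 Retnla barcodes, at 5074 and 4058 CPM, and without the deepest member its log2 ratio was -0.72. P2ry12 was at 36.9 and 44.5 CPM, a ratio whose interval of 0.356 to 2.00 holds 1. Chil3 was at 3943 CPM in the Gpnmb barcodes and 4386 CPM in the Retnla barcodes in sum, but 86.9% of the Gpnmb-side UMIs were in 1 barcode, and its medians per barcode were 388.1 and 4285 CPM. The 10 barcodes with both had Spp1 at 1970 CPM, Ctsd at 5148 CPM, Ccl24 at 1753 CPM and H2-Aa at 2905 CPM, each between the Gpnmb and the Retnla barcodes. Other genes did not lie between. Chil3 (8259 CPM), Ccl8 (6694 CPM), Mrc1 (1105 CPM) and Rnase2a (972 CPM) were above both sets. Ccr2 (276 CPM), Plac8 (7.36 CPM) and Sag (144 CPM) were below both. The 21 barcodes with neither had Ccl24 at 4013 CPM, H2-Aa at 5345 CPM and Apoe at 10577 CPM. They also had Plac8 at 383 CPM, Ccr2 at 622 CPM and Gbp2 at 139 CPM. High levels of these genes were thus not limited to members with Retnla.

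**Figure D5:**
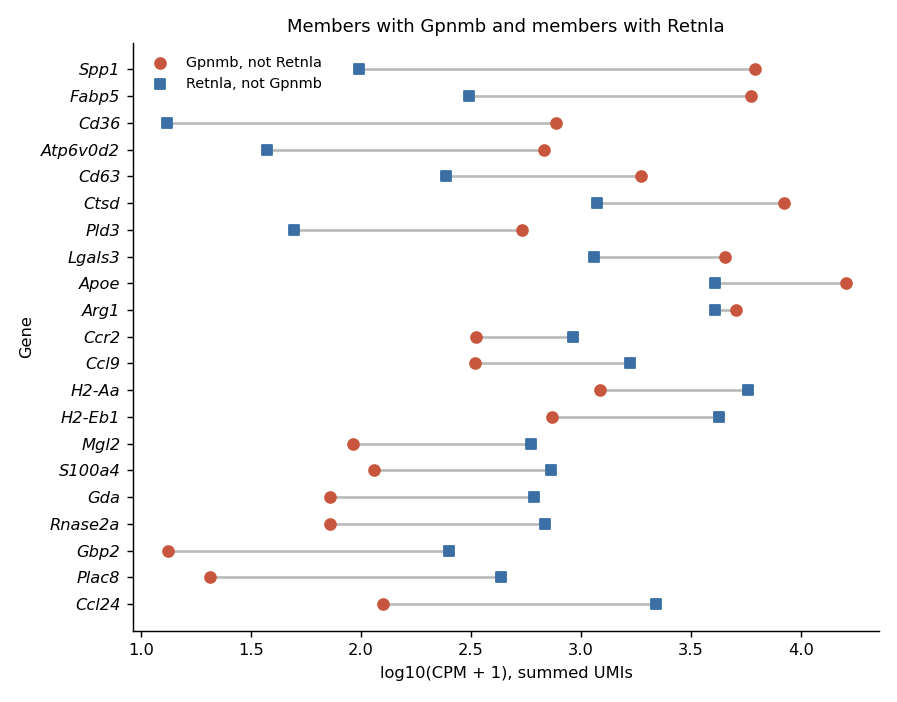
Summed level as log10(CPM + 1) (x axis) of 21 genes (rows) in the 14 members with Gpnmb and not Retnla (red circles) and the 15 with Retnla and not Gpnmb (blue squares). Ctsd was at 8364 CPM in the Gpnmb barcodes and 1183 CPM in the Retnla barcodes, and Ccl24 at 126 and 2191 CPM.

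Across the 60 members, CPM values per barcode were also ranked. Spearman's rho was 0.61 for Gpnmb with Spp1, -0.51 for Gpnmb with Ccl24, -0.42 for Gpnmb with Ccr2 and 0.70 for Ms4a7 with Apoe. It was -0.01 for Gpnmb with Retnla and 0.02 for Retnla with Arg1. For Retnla it was 0.13 with Ccl24 and 0.29 with Ccr2. The points share 1 library, differ in depth and hold many zeros, so these values describe the barcodes and carry no test.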

How the data were processed

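Single-cell 3′ RNA counts of CD45-enriched mouse retinal cells were used, with 1 library per group. The deposited files hold whole UMI counts for each gene and barcode. Cell Ranger 3.0.2 and mm10 are named in the submitters' processing notes. The gene annotation release is not given in the sources used here. GENCODE M21, which gave the coordinates, held 30934 of the 31053 gene IDs. UMIs were summed over barcodes and scaled to CPM by total UMIs with Python 3.11.15 and numpy 2.4.6. Ratios have exact conditional binomial and shares exact Clopper-Pearson 95% intervals (scipy 1.17.1), which cover counting error only. Genes with at least 20 counts over both sets were compared, and a set with 0 UMIs was given a floor of 3 counts. Intervals were tested on Poisson counts, without spread between cells. Scrublet (scanpy 1.11.5) was applied to each library with a rate of 2%. The members, gene lists and tests were chosen with earlier results of these data known.

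Named genes were the rule and C1q genes, the 15 highest and 15 lowest by the ratio bound nearest to 1 (at least 50 counts, a UMI in 10% of the higher set, without mitochondrial, ribosomal, sex-linked and model genes), members of the lists chosen by counts or ratio, and the genes of the Gpnmb and Retnla split. P2ry12, Tmem119, Gpr34, Lyve1, Cbr2, Folr2, Stab1, Ly6c2, Adgre1, Cd68 and Sag were added as cell type markers after their values were seen. Aldoa and Clec7a of the lists were not analysed here. Alternatives changed the thresholds of the rule, depth, scaling, weight and compared barcodes.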

Additional observations from a re-analysis of the deposited data

Results flagged for a closer look

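A signal outside the compared barcodes was found in the MSC-sEV library. There, 6 barcodes had 3 or more of the 6 markers but under 5 C1q UMIs, so the rule left them out, and the PBS library held 0. They had a median of 17037 UMIs and together held Chil3 at 18560 CPM, Arg1 at 9005 CPM, Mrc1 at 1091 CPM and Gpnmb at 1441 CPM, against 4605, 4915, 653 and 1283 CPM in the members. Their C1qa was at 50.0 CPM, against 3613 CPM in the members, and Retnla at 280 CPM, against 5199 CPM. Of the 6 barcodes, 2 had 4 C1q UMIs, just under the threshold.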

How the results depend on the processing

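The number of members was 60 and rested on the marker and depth thresholds. It was 97 (17.3% of C1q-positive barcodes) with a marker counted at 1 UMI, 103 (18.4%) with at least 2 markers, where the PBS library held 4 (2.04%), and 32 (5.71%) with at least 4 markers. Thinned to 1000 UMIs it was 11 (2.70%) and thinned to 5000 UMIs 34. The main counts of 485 genes at least 2-fold higher and 2562 lower gave 946 higher with genes of at least 1 count, and 1551 lower at 10 C1q UMIs, 1575 with rod markers at most 1% of UMIs and 1501 against microglia marker barcodes. At 1000 UMIs they gave 793 and 1612. With each barcode weighted equally, 585 genes were at least 2-fold lower with Gpnmb than with Retnla, against 322. Reversed at 1000 UMIs were the log2 ratios of Mmp12 (-2.42), H2-Eb1 (-0.12), Ly6c2 (-1.95), F13a1 (-0.050) and Fabp4 (-0.51), and at 5000 UMIs that of Lpl (-0.18), where fewer barcodes passed the rule. Lcn2 was at 0.21 against microglia marker barcodes, Ccl24 at -0.17 with 4 markers and Nusap1, with 0 UMIs in the members, at 0.50 against non-dividing barcodes, where it rested on the floor. The Gpnmb to Retnla log2 ratio of Arg1 was -0.34 in the same depth range and -0.72 without the deepest member. List medians near 0 changed sign: Fc receptors 0.21 at 3 C1q UMIs, 0.031 with 4 markers, 0.014 against non-dividing barcodes, 0.0046 with a marker at 1 UMI, 0.0021 with median-of-ratios scaling and 0.094 with no cell cycle condition. Dendritic cell type 1 was at 0.14 with 2 markers and 0.054 with a marker at 1 UMI, bipolar cell at 0.040 with 2 markers, and rod at 0.25 with rod markers at most 1% of UMIs. Other causes of these changes were not tested. The settings against microglia marker barcodes, without the deepest members and those of the Gpnmb and Retnla sets were chosen after seeing the data. No paired analysis was possible because each group had 1 library.

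Intervals do not cover the spread between mice or between barcodes. The PBS share of 0 is limited by 196 C1q-positive barcodes at a median of 7460 UMIs, against 11703.5 in the MSC-sEV library. Genes carried by few members, such as Mmp12, Acod1 and Pparg, were read from 7 to 10 barcodes.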

Other observations

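Other members of the Ms4a family, which lie beside Ms4a7, were also measured. Of 9 genes, 4 were at least 2-fold higher in the members and 0 at least 2-fold lower (median log2 ratio 0.89). Without Ms4a7 of the rule 3 of 8 were higher (0.84), and over all genes 4.04% were. Ms4a8a was at 36.7 CPM in the members and 4.20 CPM in the other C1q-positive barcodes (8.74-fold, 5.50 to 14.1), and Ms4a4a at 16.1 and 1.97 CPM (8.20-fold, 4.07 to 17.0). Each had a UMI in 18 of 60 members. Ms4a4a and Ms4a7 belong to a cluster of related genes, so reads shared between copies could not be checked.

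Among adhesion and uptake genes, the scavenger receptor Msr1 was at 73.3 CPM in the members and 15.1 CPM in the others (4.86-fold, 3.68 to 6.41), the integrin chain Itgax at 181 and 63.6 CPM (2.85-fold, 2.43 to 3.33) and the NAD-consuming enzyme Cd38 at 34.5 and 6.16 CPM (5.59-fold, 3.65 to 8.56). Fabp4, a fatty acid-binding protein, was at 73.3 and 11.5 CPM but came from 10 of 60 members. The transcription factor Egr2, which is induced in alternatively activated macrophages, had a UMI in 51 of 60 members and was at 289 CPM in the members and 148 CPM in the others (1.96-fold, 1.74 to 2.20). The inhibitory Fc receptor Fcgr2b was at 969 CPM in both sets. Markers of T and innate lymphoid cells were at least 2-fold lower for 9 of 10 genes and at least 2-fold higher for 1, and of 7 granulocyte markers 3 were at least 2-fold lower. Over all genes, 21.4% were at least 2-fold lower and 4.04% at least 2-fold higher.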
